A study of Mus musculus with 15 samples.

Results

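The comparison described here sets A.E7 cells stimulated through the T cell receptor (TCR) in the presence of rapamycin, PD98059 and SB203580, titled Combo, against cells that were mock stimulated. A.E7 is a mouse CD4 T helper clone, so all values come from 1 line of cells. The members are the 3 Combo arrays and the 3 mock arrays, 6 of the 15 arrays of the series, taken by their titles. Each group has 1 array on each of chip types A, B and C, which carry different probe sets, and the RNA on the arrays was a pool of 2, 4 and 6 h of treatment. The remaining arms, used only beside these values, were anti-TCR alone (titled Anergic), anti-TCR with cyclosporin A (CSA) and anti-TCR with a protein kinase C inhibitor that the labels do not name further (PKCi). The labels name no inhibitor for mock cells, and no array held the inhibitors without anti-TCR, so stimulation and the inhibitors' own effects cannot be told apart in a difference between Combo and mock. Doses and the number of cultures are not given in the sources used here.

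Engagement of the TCR activates calcineurin and NFAT through calcium, protein kinase C and NF-kB through diacylglycerol, and the ERK, p38 and mTOR kinases. Rapamycin blocks mTOR, PD98059 blocks the kinase MEK that activates ERK, and SB203580 blocks p38. Stimulation of a T helper clone through the TCR without costimulation is the classical way to make it anergic, a state in which it answers a later stimulus poorly. The comparison asks what the receptor still does in these cells with mTOR, MEK and p38 inhibited, while calcineurin and protein kinase C carry no direct block.

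Each treatment was hybridised to 1 array of a chip type, so differences carry neither an SD over cultures nor a test, and how precise they are is limited by the number of arrays. The values are array intensities as deposited, and each was raised to the median of the 5 arrays of its chip type (the floor: 51.1 on chip type A, 69.5 on B and 55 on C) before the log2 ratio was taken. A gene is read on its brightest probe set and counts as measured when its brighter value reaches 4 times the floor (204.4, 278 and 220). Below, "rose" and "fell" mean a ratio of at least 2-fold in a measured gene, and "at least" before a fold is used where the dimmer of the 2 values did not exceed the floor. The array median on chip type A was 46.95 with Combo and 53.6 with mock, while 2% trimmed means of all 15 arrays lay between 147.888 and 149.56. Where a gene could be read on more than 1 chip type, the technical SD of its log2 ratio was 0.68.

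Of 5756 genes measured, 483 (8.39%) rose and 346 (6.01%) fell with Combo. Counts within the gene lists below are to be read beside these shares. At the 4-fold level 114 (1.98%) rose and 37 (0.643%) fell. The median log2 ratio over all measured genes was -0.06, and 3840 genes lay within 1.5-fold of mock. By chip type, 235 genes rose and 127 fell of 2334 on A, 146 and 136 of 1845 on B, and 102 and 83 of 1577 on C. Over probe sets, whether named or not, 799 of 8740 (9.14%) rose and 551 (6.3%) fell. Against the same mock arrays, 659 of 5803 genes (11.4%) rose with anti-TCR alone, 493 of 5697 (8.65%) with CSA and 391 of 5667 (6.9%) with PKCi, and 808 (13.9%), 445 (7.81%) and 201 (3.55%) fell. A gene that reached the minimum only in its brighter group tends to differ by construction. Of the measured genes, 4419 were bright with both treatments, 675 with Combo only and 662 with mock only, and 181 of the risen and 178 of the fallen genes were bright with both. When 2 or more agreeing probe sets were required, 727 genes remained measurable, and 80 of them rose and 42 fell.

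**Figure D1:**
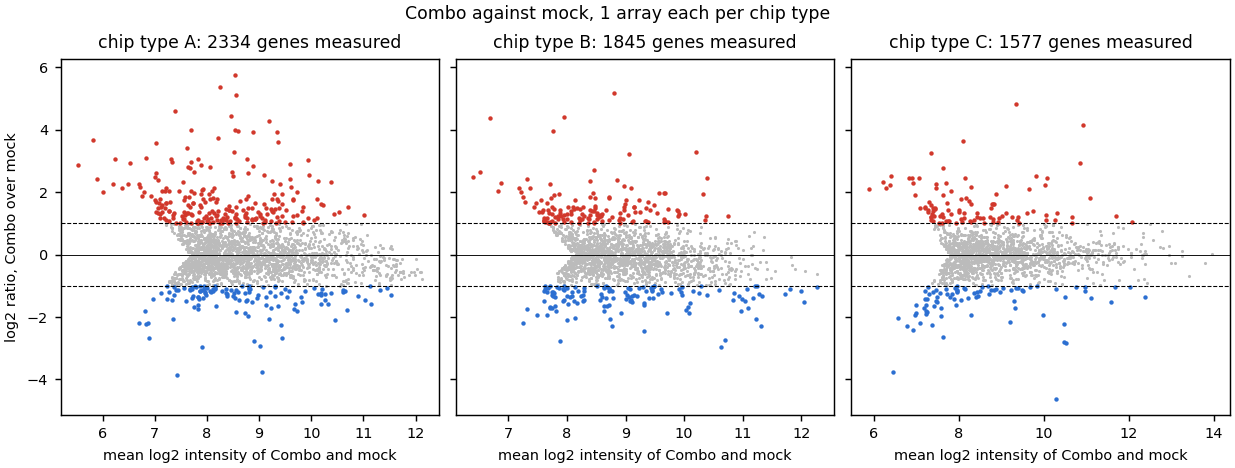
Log2 ratio of Combo over mock (vertical axis) against the mean log2 intensity of both arrays (horizontal axis) for the measured genes of each chip type; red points rose and blue points fell at least 2-fold (dashed lines), grey points did neither. The highest point, at a log2 ratio of 5.75, sits on chip type A, and the lowest point, at -4.61, on chip type C.

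The genes furthest above mock included the chemokine genes Ccl3 and Ccl4 and the transcription factor genes Egr2, Egr3, Nr4a3 and Nr4a2. Ccl3, an inflammatory chemokine of activated T cells and macrophages, read 50.5 with mock, 1363 with anti-TCR alone, 328 with CSA, 8.4 with PKCi and 2749.5 with Combo. Combo was the brightest of the 5, followed by anti-TCR alone, and the rise over mock was at least 53.8-fold. Egr2, a zinc finger factor induced by the TCR and linked to anergy, read 43.8 with mock, 3325 with anti-TCR alone, 582 with CSA, 41.7 with PKCi and 2116 with Combo. It rose at least 41.4-fold with Combo, while its PKCi and mock values both lay below the floor. For Nr4a3, an orphan nuclear receptor of the immediate early class, the values were 74.4 with mock, 4965 with anti-TCR alone, 1160.2 with CSA, 149 with PKCi and 2676 with Combo, a 36.0-fold rise with Combo. Nr4a2, of the same receptor family, rose at least 24.4-fold, reading 22.7 with mock, 2536 with anti-TCR alone, 122 with CSA, 127 with PKCi and 1245 with Combo. Combo was the only inhibitor arm in which Nr4a2 exceeded 200.

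Gch1 encodes GTP cyclohydrolase, the rate-limiting enzyme of tetrahydrobiopterin synthesis. Its intensities were 75.2 with mock, 2292 with anti-TCR alone, 221 with CSA, 355 with PKCi and 1643 with Combo, so that the Combo value lay 21.8-fold above mock and nearer to anti-TCR alone than to CSA or PKCi. Spry1, a feedback inhibitor of receptor signalling to ERK, read 41.7 with mock, 3428 with anti-TCR alone, 81.3 with CSA, 103 with PKCi and 1465 with Combo, which is at least 21.1-fold above mock. Kdm6b, a demethylase of histone H3 lysine 27, rose at least 21.0-fold (7.3 with mock, 4085 with anti-TCR alone, 2701 with CSA, 4.4 with PKCi and 1458 with Combo). The rest of the 15 largest rises among genes whose bright probe sets had the same sign were Egr3, Ccl4, Penk, Bcl3, Tnfsf11, Phlda1, Rhbdf2 and Rgs16, which rose between 15.4-fold and 28.6-fold. Penk, which encodes the opioid precursor proenkephalin, was read on a suffixed probe set, whose name marks shared sequence or a broken design rule. Its intensity went from 457 to 8225, and its 3 bright probe sets gave log2 ratios from 1.57 to 4.17. Rgs16, a brake on G protein signalling, went from 119.8 to 1844 and had log2 ratios of 3.94 and 4.40 on its 2 bright probe sets.

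**Figure D2:**
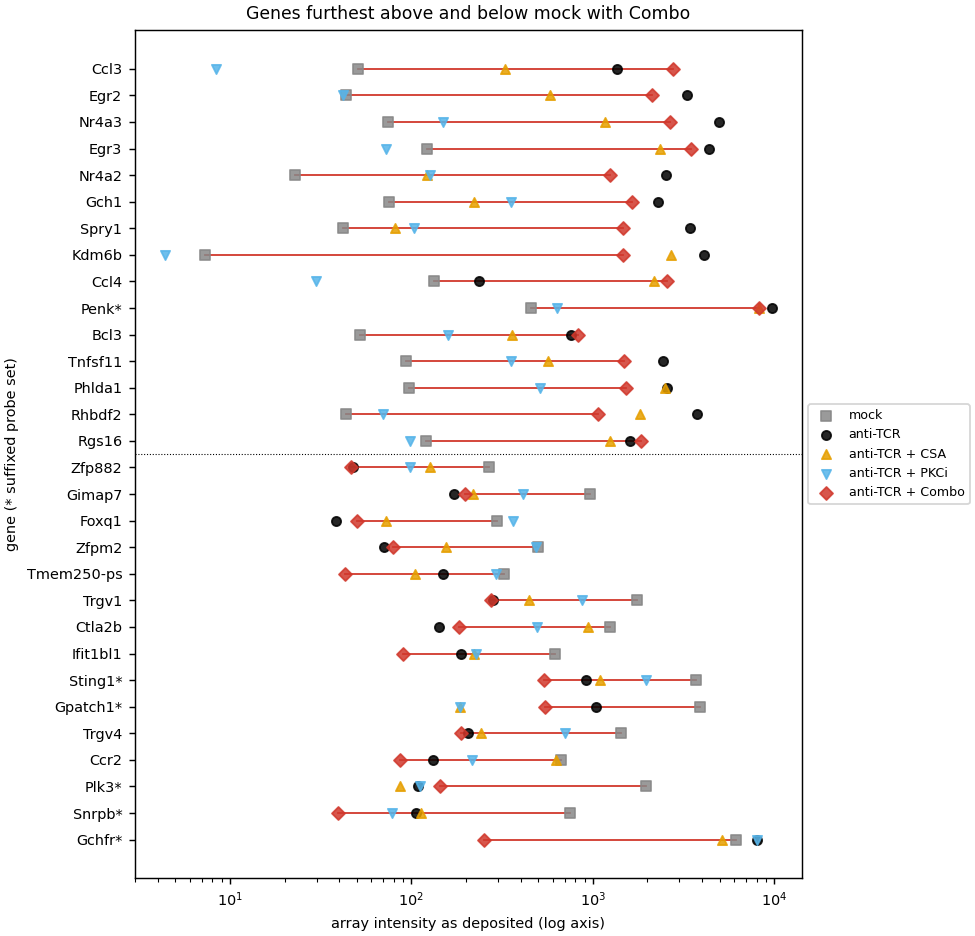
Array intensity as deposited (log axis) in the 5 treatments for the 15 genes furthest above and the 15 furthest below mock with Combo, 1 array per point; the red line joins mock and Combo and an asterisk marks a suffixed probe set. Among the risen genes the PKCi points lie at or near mock for Egr2 and Egr3, whereas the Combo points lie near anti-TCR alone; for Gchfr only the Combo point, at 253, lies apart from the other 4.

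The promoters of the 6 highest of these genes with an entry in the promoter table are printed because these genes moved together, and each covers 250 bases before to 50 after the start of the gene in RefSeq on GRCm38.p6, 5′ to 3′ along the gene. Capitals mark TGACG or its reverse complement CGTCA, the core of the cAMP response element that CREB and ATF factors bind. The windows are chr11:83649329-83649628 (minus strand) for Ccl3, chr10:67535249-67535548 (plus strand) for Egr2, chr4:48045055-48045354 (plus strand) for Nr4a3, chr2:57123954-57124253 (minus strand) for Nr4a2, chr14:47189364-47189663 (minus strand) for Gch1 and chr3:37639697-37639996 (plus strand) for Spry1.
Ccl3: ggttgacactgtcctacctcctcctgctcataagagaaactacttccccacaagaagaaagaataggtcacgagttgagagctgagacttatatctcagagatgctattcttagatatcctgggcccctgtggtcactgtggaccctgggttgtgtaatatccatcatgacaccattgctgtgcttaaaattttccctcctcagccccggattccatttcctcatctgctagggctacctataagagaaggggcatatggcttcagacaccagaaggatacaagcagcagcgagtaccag
Egr2: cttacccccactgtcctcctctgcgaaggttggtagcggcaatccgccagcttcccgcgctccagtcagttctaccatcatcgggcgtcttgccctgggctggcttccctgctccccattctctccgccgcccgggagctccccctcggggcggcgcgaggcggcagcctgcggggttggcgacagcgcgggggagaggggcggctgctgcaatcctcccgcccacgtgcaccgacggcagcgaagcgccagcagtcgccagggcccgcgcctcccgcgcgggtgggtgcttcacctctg
Nr4a3: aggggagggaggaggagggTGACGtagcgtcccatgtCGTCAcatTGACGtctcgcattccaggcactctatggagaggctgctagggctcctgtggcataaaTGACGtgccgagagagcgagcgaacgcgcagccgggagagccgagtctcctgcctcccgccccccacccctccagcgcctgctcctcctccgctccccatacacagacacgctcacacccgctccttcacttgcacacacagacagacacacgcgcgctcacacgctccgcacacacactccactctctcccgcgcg
Nr4a2: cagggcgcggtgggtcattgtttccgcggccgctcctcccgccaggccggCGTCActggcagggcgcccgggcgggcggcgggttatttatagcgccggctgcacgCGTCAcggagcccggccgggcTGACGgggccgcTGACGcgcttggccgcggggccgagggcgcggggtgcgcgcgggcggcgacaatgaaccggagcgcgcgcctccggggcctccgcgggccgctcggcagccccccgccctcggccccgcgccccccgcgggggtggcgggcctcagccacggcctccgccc
Gch1: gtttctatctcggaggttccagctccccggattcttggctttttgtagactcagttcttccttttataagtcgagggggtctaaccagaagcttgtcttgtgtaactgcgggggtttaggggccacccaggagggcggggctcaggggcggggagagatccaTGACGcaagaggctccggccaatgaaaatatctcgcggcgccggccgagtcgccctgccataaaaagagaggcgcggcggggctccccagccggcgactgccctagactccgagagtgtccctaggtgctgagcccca
Spry1: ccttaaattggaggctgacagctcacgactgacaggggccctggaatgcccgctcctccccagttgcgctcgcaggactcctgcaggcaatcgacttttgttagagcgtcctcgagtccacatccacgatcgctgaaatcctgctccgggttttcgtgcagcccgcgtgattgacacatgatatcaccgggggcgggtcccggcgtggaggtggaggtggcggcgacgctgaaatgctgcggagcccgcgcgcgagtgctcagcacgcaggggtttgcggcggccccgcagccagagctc

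The motif letters were chosen after these promoters had been looked at, both strands were searched, and a match is a description of the letters only. Nr4a3 and Nr4a2 each hold 4 matches to TGACG on either strand, Gch1 holds 1, and the other 3 windows hold none, which says only that these letters are not in those windows. The core was present in 34.5% of the 394 promoters found for risen genes, 34.3% of the 4700 found for all measured genes, 19.9% of the 276 of fallen genes and 21.0% of all 27025 promoters of the table. The risen genes thus stood at the level of all measured genes. The kappa B motif of NF-kB was found in 5.33% of the promoters of risen genes, 5.80% of those of fallen genes and 5.19% of those of all measured genes, and Gch1 holds 1 match. The NFAT core TGGAAA was found in 16.8%, 15.9% and 16.2% of these groups, and the AP-1 motif TGANTCA in 4.31%, 7.25% and 4.55%. Among the 91 promoters of genes risen at least 4-fold the shares were 11.0% for kappa B, 19.8% for NFAT and 5.49% for AP-1.

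Immediate early transcription factor genes, which cells switch on without new protein synthesis, were mostly above mock with Combo. Of 30 on the arrays 22 were measured, 15 rose and 0 fell, with a median log2 ratio of 2.47 beside -0.06 over all measured genes. Of those 22, 10 were bright with Combo only, and the median over the 12 bright with mock was 0.58. The median for the same 22 genes was 2.40 with anti-TCR alone, 2.01 with CSA and 0.29 with PKCi, each against the same mock arrays. Egr3, the close relative of Egr2, read 121 with mock, 4354 with anti-TCR alone, 2359 with CSA, 72 with PKCi and 3470.4 with Combo. Both of its bright probe sets rose, with log2 ratios of 4.84 and 3.11. Nr4a1, the receptor also called Nur77, read 64 with mock, 3002 with anti-TCR alone, 2244 with CSA, 77.3 with PKCi and 2205 with Combo on its brightest probe set, a 34.4-fold rise, but a probe set on chip type B read 327 with mock and 310 with Combo (log2 ratio -0.08). Nr4a3 likewise had a smaller log2 ratio, 1.79, on chip type C, and Nr4a2 gave 4.61 and 4.32 on its 2 bright probe sets. All 3 Nr4a genes were bright with Combo only.

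Egr1, the founding member of the Egr family and a textbook ERK target, read 86.9 with mock, 346 with anti-TCR alone, 675 with CSA, 13.4 with PKCi and 639 with Combo. It rose 7.35-fold with Combo. Nab2, a corepressor that binds Egr proteins, rose 13.3-fold (from 81 to 1073), whereas its relative Nab1 read 812 and 656 and did not reach 2-fold. Egr4 rose 2.30-fold on a suffixed probe set (from 442 to 1018), and its other bright probe set had a log2 ratio of 0.18. Among AP-1 and ATF genes, Fosl2 rose 9.85-fold (from 378 to 3721) with a log2 ratio of 2.96 on another probe set, and Atf3, a stress-induced repressor, rose 6.92-fold on a suffixed probe set. Crem, a cAMP-responsive modulator, read 76.7 with mock, 252 with anti-TCR alone, 723 with CSA, 1139 with PKCi and 315 with Combo on a suffixed probe set, so Combo lay below CSA and PKCi. Irf4, a factor of T helper differentiation chosen after its values were seen, read 269 with mock and 1391 with Combo. At the other end Klf6 (-0.47), Btg2 (-0.17) and Srf (0.27) had log2 ratios within 2-fold of mock.

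The secreted products were split between genes that stayed high with Combo and genes that were dim. Of 13 T helper cytokine genes on the arrays 4 were measured and all 4 rose, 3 of them bright with Combo only. The fourth, Csf1, had a log2 ratio of 1.64, and the median over all 13 was 0. The median log2 ratio of the 4 was 2.89, and it was 4.05 with anti-TCR alone, 1.70 with CSA and 0.05 with PKCi. Ifng, the signature cytokine of Th1 cells, read 151 with mock, 3261 with anti-TCR alone, 538 with CSA, 84.1 with PKCi and 1273 with Combo. Its Combo value lay 8.41-fold above mock and below that of anti-TCR alone. Csf2, which encodes GM-CSF, rose at least 7.73-fold, reading 21.6 with mock, 1672 with anti-TCR alone, 151 with CSA, 9.7 with PKCi and 395 with Combo. Tgfb1, an inhibitory cytokine, rose 7.13-fold (from 178 to 1268), and Csf1, the macrophage growth factor, rose 3.11-fold (from 660 to 2051).

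Other cytokines and chemokines did not reach 4 times the floor with Combo or mock on their brightest probe set and have no call; the examples here were chosen after their values were seen. Il13, a Th2 cytokine, read 10.5 with mock, 1005 with anti-TCR alone, 71.6 with CSA, 7.2 with PKCi and 193 with Combo, with anti-TCR alone and then Combo the highest. Il5, the eosinophil growth factor, read 481 with anti-TCR alone, and its Combo (6.5) and mock (44.9) values both lay below the floor. The chemokines Xcl1, Ccl1 and Ccl9 read 2472, 1983 and 532 with anti-TCR alone against 141, 102 and 20.9 with Combo. Another Ccl1 probe set, dimmer over the 5 treatments, reached 4 times the floor and had a log2 ratio of 3.15. Il2 stayed below the floor on all 5 arrays of chip type A, at 1.3 with mock and 1.1 with Combo. Of 10 chemokines 2 were measured, Ccl3 and Ccl4, and both rose and were bright with Combo only. Ccl4, a chemokine closely related to Ccl3, read 133 with mock, 237 with anti-TCR alone, 2171 with CSA, 29.6 with PKCi and 2571 with Combo, so that Combo and CSA were high while anti-TCR alone lay within 2-fold of mock. Its Combo value was 19.4-fold above mock.

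Of 11 ligands of the TNF superfamily 7 were measured, 5 rose and 0 fell, with a median log2 ratio of 2.26 (1.61 with anti-TCR alone, 0.38 with CSA and 0.12 with PKCi). Of those 7, 3 were bright with Combo only, and the median was 0.64 over the 4 bright with mock and 0.61 over all 11. Tnf read 335 with mock, 133 with anti-TCR alone, 892 with CSA, 341 with PKCi and 1786 with Combo. Combo was the brightest of the 5 arrays, 2.00-fold above CSA, the next, and 5.34-fold above mock. Tnfsf11, which encodes RANKL, rose 15.8-fold and Tnfsf9, the ligand of 4-1BB, 5.01-fold. Lta, which encodes lymphotoxin alpha, rose at least 4.81-fold on a suffixed probe set, reading 1254 with anti-TCR alone and 246 with Combo. Fasl rose 2.09-fold (from 504 to 1051), while Ltb and Tnfsf10 stayed within 2-fold of mock at log2 ratios of 0.22 and -0.01. Cd40lg lay below the floor with mock (3.4) and reached 77.9 with Combo, too dim to be measured.

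**Figure D3:**
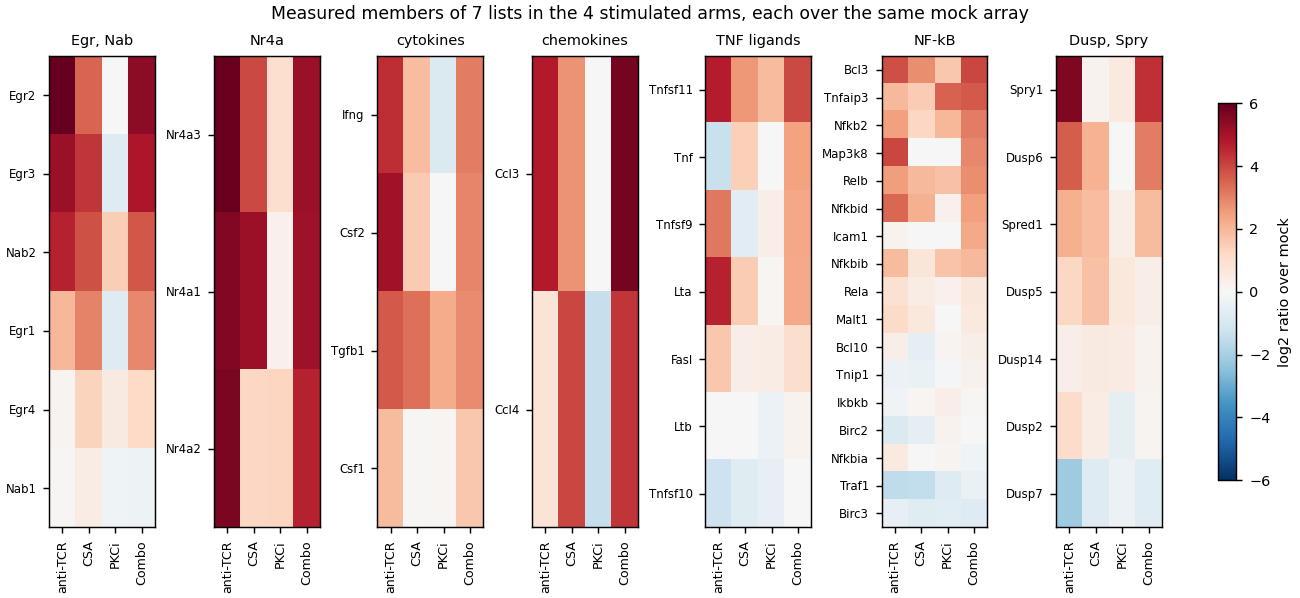
Log2 ratio over mock (colour, blue below and red above mock) of the measured members of 7 gene lists (rows) in the 4 stimulated arms (columns), all set against the same mock array. The Combo column is red for Egr2, Egr3 and all 3 Nr4a genes, whose PKCi column is pale; Icam1 is red with Combo only, and Nfkbia, Dusp2 and Dusp14 are pale with Combo.

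NF-kB, which protein kinase C feeds into, drives genes for its own subunits and inhibitors. Of 22 such genes on the arrays 17 were measured, 8 rose and 0 fell, with a median log2 ratio of 0.68, beside 0.92 with anti-TCR alone, 0.11 with CSA and 0.23 with PKCi. Of the 17, 7 were bright with Combo only, and the median over the 10 bright with mock was 0.17. Bcl3, a nuclear coactivator of the p50 and p52 subunits, rose 15.9-fold (from 52 to 829) and had a log2 ratio of 1.32 on its other bright probe set. Tnfaip3, which encodes the ubiquitin-editing inhibitor A20, read 4.9 with mock, 199 with anti-TCR alone, 147 with CSA, 589 with PKCi and 647 with Combo. It rose at least 12.7-fold with Combo, and PKCi was the nearest arm. Nfkb2, the precursor of p52, rose 8.31-fold, reading 79.1 with mock, 437 with anti-TCR alone, 189 with CSA, 311 with PKCi and 657 with Combo. Relb, the partner of p52, chosen after its values were seen, read 75.7 with mock and 525 with Combo.

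Icam1, an adhesion molecule and a known NF-kB target, read 33.1 with mock, 58.4 with anti-TCR alone, 31 with CSA, 35.2 with PKCi and 244 with Combo. Its Combo value was 4.18-fold above the next arm and at least 4.77-fold above mock, with 4 arms near or below the floor. Nfkbia, which encodes the inhibitor I kappa B alpha, gave conflicting readings. Its brightest, suffixed probe set on chip type C read 9439 with mock and 7899 with Combo, while 2 probe sets on chip type A went from 510 to 2835 and from 501 to 1020. Birc3 (-0.77) and Traf1 (-0.38) were the lowest of the list, and neither reached 2-fold.

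Among 25 measured genes linked to anergy or negative regulation 11 rose and 2 fell, with a median log2 ratio of 0.78. Of these 25, 10 were bright with Combo only, the median over the 15 bright with mock was -0.06, and several members, Egr2 and Egr3 among them, also stand in lists above. The risers other than those included Socs1, an inhibitor of cytokine receptor kinases, which read 117 with mock, 1196 with anti-TCR alone, 572 with CSA, 544 with PKCi and 1144 with Combo and rose 9.75-fold. Cish, a relative of Socs1, rose 5.81-fold (from 226 to 1314). Ndrg1, chosen after its values were seen, read 101 with mock, 802 with anti-TCR alone and 699 with Combo. The members that fell were Ptpn2, a phosphatase of TCR and cytokine signalling (2.36-fold), and Dgka, a diacylglycerol kinase that damps the TCR signal (2.15-fold).

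Of 11 measured activation and inhibitory receptor genes 3 rose and 0 fell, with a median log2 ratio of 0.59. Of these 11, 2 were bright with Combo only, and the median over the 9 bright with mock was 0.33. Lag3, an inhibitory receptor for MHC class II, read 74.2 with mock, 644 with anti-TCR alone, 91.7 with CSA, 122 with PKCi and 585 with Combo, with Combo and anti-TCR alone apart from the other 3 arms. It rose 7.89-fold. Tnfrsf4, which encodes OX40, rose 4.78-fold (from 310.3 to 1483), and Pdcd1, which encodes PD-1, rose 3.45-fold (from 157 to 541). Cd28, Il2rb and Tfrc stayed within 2-fold of mock on their brightest probe sets, although a Tfrc probe set on chip type B went from 94.8 to 335 (log2 ratio 1.82), and Tnfrsf9, Cd69 and Il2ra were too dim to be measured.

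The genes tied to the kinases that the mix inhibits were examined next. Of 21 genes commonly linked to ERK 10 were measured, 8 rose and 0 fell, with a median log2 ratio of 2.87 with Combo, 3.38 with anti-TCR alone, 1.81 with CSA and 0.42 with PKCi. Of these, 6 were bright with Combo only, and the median was 1.47 over the 4 bright with mock and 0.61 over all 21. Dusp6, the ERK phosphatase, read 13.1 with mock, 634 with anti-TCR alone, 218 with CSA, 12.1 with PKCi and 432 with Combo. It rose at least 8.45-fold with Combo and had a log2 ratio of 1.96 on chip type B. Phlda1 rose 15.7-fold and Ier3 5.92-fold, and Map3k8, a kinase upstream of MEK, read 5.7 with mock, 824 with anti-TCR alone, 6 with CSA, 7.9 with PKCi and 372 with Combo. Map3k8 rose at least 7.29-fold with Combo, and its mock, CSA and PKCi values lay below the floor. The remaining measured members, Dusp5 (0.37) and Mcl1 (-0.12), stayed within 2-fold, and 11, including Fosl1, Etv4, Etv5, Spry2 and Spry4, were too dim.

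Of 15 MAP kinase phosphatase and Sprouty genes 7 were measured, 3 rose and 0 fell, and the median log2 ratio was 0.37, beside 1.23 with anti-TCR alone, 0.54 with CSA and 0.39 with PKCi. All 3 that rose were bright with Combo only, and the median over the 4 bright with mock was 0.17. Spry1 and Dusp6 have been given; the third was Spred1, a Sprouty relative, which rose 3.74-fold (from 114 to 425). Dusp5, another ERK phosphatase, read 1567 with mock, 3669.5 with anti-TCR alone, 5339.6 with CSA, 2455 with PKCi and 2020.3 with Combo, with CSA the brightest and Combo within 2-fold of mock. Dusp2 read 1376 with mock, 2972 with anti-TCR alone, 1892 with CSA, 957 with PKCi and 1534 with Combo, again with Combo close to mock. Dusp7 (-0.72) and Dusp14 (0.19) stayed within 2-fold.

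Of 21 genes linked to p38 or its stress-kinase neighbours 10 were measured, 8 rose and 0 fell, with a median log2 ratio of 2.06 with Combo, 1.69 with anti-TCR alone, 1.40 with CSA and 0.23 with PKCi. Of these 10, 4 were bright with Combo only, and the median was 1.49 over the 6 bright with mock and 0.84 over all 21. Ifng and Tnf stand in the cytokine and ligand lists too. Gadd45b, a stress-induced activator upstream of p38, was read on a suffixed probe set at 167 with mock, 1715 with anti-TCR alone, 474 with CSA, 248 with PKCi and 2536 with Combo, with Combo the brightest. It rose 15.2-fold, and another probe set on chip type A had a log2 ratio of 3.01. Map2k3, a kinase that activates p38, rose 5.13-fold (from 494 to 2537) with 1.37 on its other bright probe set. The p38 substrates Mapkapk3 and Mapkapk2 differed in call on their brightest probe sets. Mapkapk3 rose 2.34-fold, with a log2 ratio of 2.49 on another probe set. Mapkapk2 had a log2 ratio of 0.94 on its brightest probe set and 3.06 on a suffixed one. Of 13 measured MAP kinase cascade genes 3 rose, Map3k8, Map2k3 and the ERK substrate Rps6ka3 (3.85-fold), and 0 fell. Among these 13, 3 were bright with Combo only, and the median over the 10 bright with mock was 0.32.

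Most measured genes of the mTOR pathway and of brakes on PI3 kinase were not called. Of 16 measured 1 rose (6.25%), 3 fell and 12 did neither, beside 8.39% risen and 6.01% fallen over all measured genes. The median log2 ratio was -0.27, and it was 0 over all 27 on the arrays. Pik3ip1, an inhibitor of PI3 kinase, read 936 with mock, 122 with anti-TCR alone, 201 with CSA, 1361 with PKCi and 328 with Combo on a suffixed probe set. It fell 2.85-fold with Combo, less than with anti-TCR alone or CSA, and PKCi lay above mock. Deptor, a component and inhibitor of mTOR complexes, read 346 with mock, 313 with anti-TCR alone, 222 with CSA, 169 with PKCi and 137 with Combo and fell 2.53-fold, to the lowest of the 5 values. Sesn1, a stress-induced brake on mTOR complex 1, fell 2.03-fold, and Rptor, the scaffold of that complex, rose 2.30-fold (from 147 to 338). Rptor was bright with Combo only.

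Lists of programmes that mTOR is known to favour are read against the 8.39% of all measured genes that rose and the 6.01% that fell. Sterol and fatty acid synthesis had 13 measured genes, 0 risen and 1 fallen (Scd2, 2.60-fold, suffixed), with a median of -0.00. Glycolysis and hypoxia genes had 14, with 3 risen (21.4%), 0 fallen and a median of 0.46, and the risers were the glycolytic enzyme genes Pgam1 (3.84-fold), Pfkp (2.50-fold, suffixed) and Tpi1 (2.16-fold). Among these 14, 2 were bright with Combo only, and the median over the 12 bright with mock was 0.38. Targets of Atf4 and of amino acid shortage had 12, with 3 risen (25%) and a median of 0.28: Atf4 itself (2.88-fold) and the amino acid transporter subunits Slc3a2 (2.99-fold, with a log2 ratio of 0.96 on chip type C) and Slc7a5 (2.32-fold). Translation initiation and elongation factors had 19, with 1 risen (Eef2, 2.30-fold, with a log2 ratio of 0.69 on another probe set) and a median of 0.14.

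Nucleolar ribosome biogenesis had 23 measured genes, with 3 risen, 0 fallen and a median of 0.20, beside 0.50 with anti-TCR alone and -0.25 with PKCi. The risers were Fbl, which encodes fibrillarin (2.90-fold), Bop1 (2.41-fold) and Rrs1 (2.19-fold). Of the 23, 3 were bright with Combo only, and the median over the 20 bright with mock was 0.12. Only 1 of the 3 risers was bright with mock too. Aminoacyl-tRNA synthetases had 10, with 2 risen, Tars (4.38-fold) and Vars (2.44-fold), and heat shock proteins had 13, with 3 risen, Hspa1b (3.02-fold), Hspa5 (2.48-fold) and Dnajb1 (2.00-fold). Of the 10 synthetase genes 3 were bright with Combo only, and the median over the 7 bright with mock was -0.03. Of the 13 heat shock genes 1, Hspa1b, was bright with Combo only. Among 16 measured autophagy and lysosome genes 2 rose, the receptor gene Sqstm1 (2.73-fold) and Gabarapl1 (2.02-fold), and 3 fell, Gabarapl2 (2.42-fold), Ctsd (2.28-fold) and Cln3 (2.26-fold). DNA replication had 10 measured genes, 0 called and a median of -0.03. Of 8 measured cyclin and cyclin kinase inhibitor genes 2 rose, Ccnd2 (from 279 to 781) and Cdkn1a (from 109 to 245), and Rbl2 fell 2.20-fold. Cdkn1a was bright with Combo only.

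**Figure D4:**
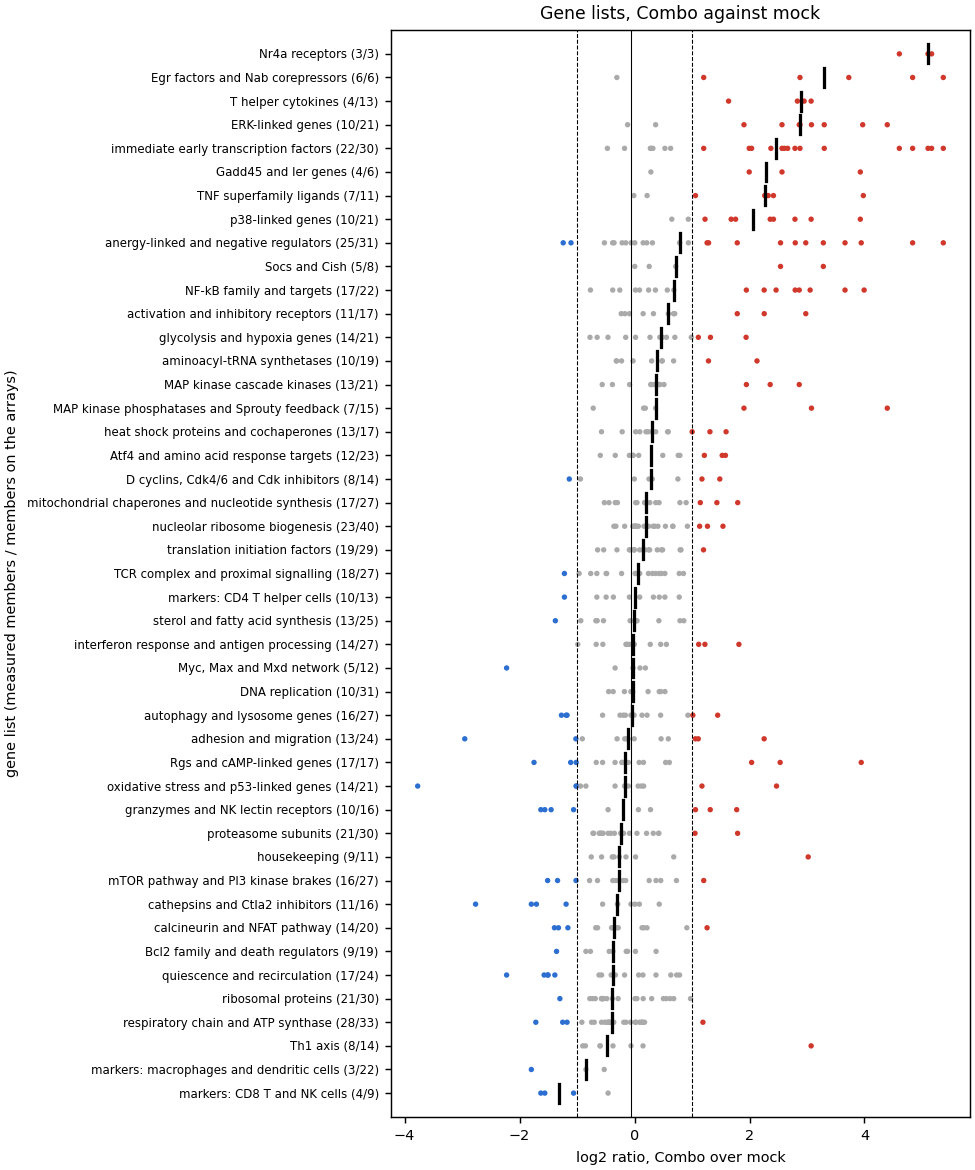
Log2 ratio of Combo over mock for each measured member (points; red risen, blue fallen, grey neither) of the gene lists with at least 3 measured members, with the list median as a black bar; dashed lines mark 2-fold, the solid line the median of all measured genes (-0.06), and brackets give measured members and members on the arrays. The medians run from 5.11 for the Nr4a receptors to -1.31 for the CD8 T and NK cell markers, and 8 of the lists have a median of 1 or more. All 3 Nr4a genes and 4 of the 6 Egr and Nab genes were bright with Combo only, so these list medians are high partly by construction. The median over the 2 Egr and Nab genes bright with mock was 0.45.

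Several of the genes furthest below mock were read on suffixed probe sets. Gchfr, whose product regulates the enzyme encoded by Gch1, read 6187 with mock, 8034 with anti-TCR alone, 5157 with CSA, 8059.9 with PKCi and 253 with Combo. It was 24.5-fold lower with Combo than with mock and 20.4-fold below the next arm, on a suffixed probe set with no other bright probe set beside it. Gchfr and Gch1 thus went in opposite directions on these arrays, with Gch1 rising on 2 chip types (log2 ratios 4.45 and 3.03). Snrpb and Plk3, also suffixed, were at least 14.6-fold and 13.7-fold lower, and all 4 stimulated arms of both lay below mock.

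Ccr2, a chemokine receptor of effector and memory T cells, read 668 with mock, 131 with anti-TCR alone, 630.1 with CSA, 216 with PKCi and 86.2 with Combo. It fell 7.75-fold with Combo, whereas CSA stayed near mock. The gamma chain segments Trgv4 and Trgv1 fell 7.64-fold and 6.36-fold; they belong to 1 multigene family, whose probes may share signal. Trgv4 read 1427 with mock, 205 with anti-TCR alone, 243 with CSA, 700.3 with PKCi and 187 with Combo, lower than mock in every stimulated arm. Ctla2b, a cathepsin inhibitor, fell 6.80-fold (from 1249.6 to 184), the GTPase Gimap7 4.87-fold (from 959.6 to 197), the interferon-induced Ifit1bl1 6.88-fold (from 619 to 90) and the cofactor Zfpm2 6.29-fold (from 497 to 79.1). Sting1, the sensor adaptor of cytosolic DNA, fell 6.93-fold on a suffixed probe set (from 3715 to 536).

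Genes of resting T cells were called in the downward direction only. Of 17 measured quiescence and recirculation genes 0 rose and 5 fell, with a median log2 ratio of -0.38, beside -0.39 with anti-TCR alone, -0.65 with CSA and -0.14 with PKCi. Over all measured genes 8.39% rose and 6.01% fell. The median over all 24 members on the arrays was 0. Il7r, the receptor chain for the survival cytokine IL-7, read 2215 with mock, 492 with anti-TCR alone, 817 with CSA, 1164 with PKCi and 744 with Combo. It fell 2.98-fold with Combo and was lower than mock in all 4 stimulated arms. Mxd4, a MAX partner that opposes Myc, read 3068 with mock, 268 with anti-TCR alone, 853 with CSA, 5412 with PKCi and 656 with Combo on a suffixed probe set; it fell 4.68-fold with Combo while PKCi lay above mock. Its 3 bright probe sets, 1 on each chip type, gave log2 ratios between -2.23 and -1.57. Pdcd4, an inhibitor of translation initiation, fell 2.56-fold (from 1432 to 559).

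Of 14 measured calcineurin and NFAT pathway genes 1 rose (7.14%) and 3 fell, with a median log2 ratio of -0.35, beside 8.39% risen and 6.01% fallen over all measured genes. Nfatc1, the NFAT gene that the TCR induces, read 342 with mock, 2236 with anti-TCR alone, 223 with CSA, 277 with PKCi and 820.2 with Combo. It rose 2.40-fold, and its 3 bright probe sets gave log2 ratios between 1.26 and 2.26. Nfatc2, the NFAT factor present in resting cells, read 1149.9 with mock, 423 with anti-TCR alone, 1815 with CSA, 795 with PKCi and 438 with Combo and fell 2.63-fold. The calcium sensor gene Stim1 fell 2.50-fold (from 576 to 230.1), with a log2 ratio of -0.36 on a suffixed probe set of chip type C, and Nfat5 2.23-fold (from 1049.9 to 469.9). The calcineurin subunit genes stayed within 2-fold, from -0.68 for Ppp3cc to 0.91 for Ppp3r1, which read -0.67 on a suffixed probe set of chip type C.

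Of 18 measured genes of the TCR complex and its proximal kinases 0 rose and 1 fell, Cd3d (2.33-fold), with a median of 0.05. Zap70, the kinase recruited to the receptor, had a log2 ratio of -0.49 on its brightest, suffixed probe set, but 2.50 and 1.75 on 2 others on the same chip type. Of 10 measured granzyme and NK receptor genes 3 rose and 4 fell, beside 8.39% risen and 6.01% fallen over all measured genes. Gzmd rose 3.43-fold (suffixed) and Srgn, the granule proteoglycan, 2.49-fold, while Gzma fell 2.74-fold (suffixed; from 2045 to 748). The lectin receptor genes Klre1, Klrk1 and Klrd1 fell 3.10-fold, 2.95-fold and 2.09-fold. These lectin receptors also mark CD8 T and NK cells, whose defining genes Cd8a, Prf1 and Ncr1 lay below the floor with both treatments. Beside the same shares, of 11 measured cathepsin and Ctla2 genes 0 rose and 4 fell, including Ctss (3.47-fold) and Ctsw (3.27-fold).

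The medians of lists of basic metabolism lay slightly below mock, beside -0.06 over all measured genes, of which 8.39% rose and 6.01% fell. Respiratory chain and ATP synthase genes had a median log2 ratio of -0.39, with 1 of 28 risen (Uqcrc1, 2.28-fold) and 3 fallen, Ndufs1 (3.29-fold), Ndufs4 (2.38-fold) and Uqcrc2 (2.26-fold, suffixed). Ribosomal protein genes had the same median, with 0 of 21 risen and 1 fallen (Rpl8, 2.46-fold), and proteasome subunits had -0.24, with 2 of 21 risen. The ribosomal protein gene Rplp0 gave conflicting readings. Its log2 ratio was 0.68 on its brightest probe set on chip type C and -1.52 on chip type A (from 4414 to 1539). Among 9 measured housekeeping genes, with a median of -0.27, the tubulin gene Tubb5 rose 8.12-fold on a suffixed probe set, and its 3 bright probe sets gave 1.94 to 3.02.

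Few genes set Combo apart from every other arm. In 10 of 5756 measured genes (0.174%) the Combo value was at least 2-fold above the brightest of the other 4 treatments, and in 11 (0.191%) at least 2-fold below the dimmest. With 2 or more agreeing probe sets required, these counts were 0 and 1. In the upper group Icam1 stood furthest from the next arm, followed by Tram1l1 (3.28-fold above, on a suffixed probe set), Nwd2 (2.88-fold), Bud23 (2.64-fold), the nuclear export receptor gene Xpo1, Rhox13 (2.37-fold) and the proteasome activator gene Psme1 (2.04-fold). Ccl3 (2.02-fold), Tnf (2.00-fold) and Nfil3 (2.00-fold) lay just past the 2-fold level. Xpo1 read 209 with mock, 237 with anti-TCR alone, 179.8 with CSA, 214 with PKCi and 568 with Combo, so that 4 arms lay close together and Combo was 2.40-fold above the next. In the lower group Gchfr stood furthest from the next arm, followed by Snx30 (4.43-fold below) and Brap (2.78-fold below). Neither of these held on other probe sets: Snx30 had a log2 ratio of -2.46 and 0.02, and Brap -2.29, on a suffixed probe set, -0.42 and 0.96. Ndufs1, a subunit of complex I, read 351 with mock, 262 with anti-TCR alone, 299 with CSA, 282 with PKCi and 107 with Combo, with log2 ratios of -1.72 and -0.76 on its 2 bright probe sets. Genes at least 2-fold above and below all other treatments numbered 89 and 101 for anti-TCR alone, 32 and 15 for CSA and 28 and 28 for PKCi. For mock they numbered 37 and 133. Each count ran over genes bright in that arm or in mock, and for mock over genes bright in mock or Combo.

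If the pool of a treatment was the same on the 3 chip types, a gene with probe sets on more than 1 gives the nearest thing to a repeat. The technical SD given above, a factor of 1.61, came from 761 such pairs and, on that condition, covers arrays and probes and not cultures. Of 68 risen genes that had a bright probe set on another chip type, 52 (76.5%) lay in the same direction there and 19 (27.9%) at least 2-fold, and the median log2 ratio was 1.46 on the chosen probe set and 0.48 on the other. Of 33 fallen genes, 25 (75.8%) lay in the same direction and 12 (36.4%) at least 2-fold, with medians of -1.27 and -0.76. For the 15 genes risen at least 4-fold these counts were 11 and 7. Only 4 genes fallen at least 4-fold could be read again, and 1 of them lay below mock on the other chip type. The brighter probe set was chosen by its level over all 5 treatments. Genes were called risen or fallen on that first value of a pair, so the first value is selected by its ratio and the second is not.

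**Figure D5:**
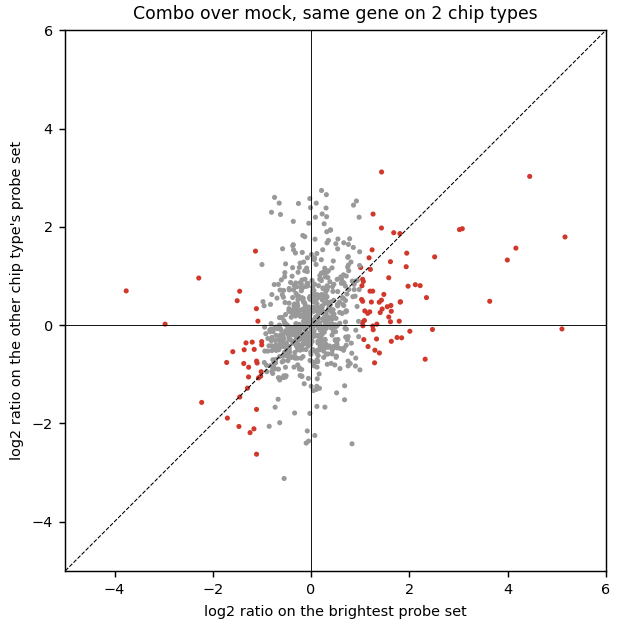
Log2 ratio of Combo over mock for the same gene on its brightest probe set (horizontal axis) and on a probe set of another chip type (vertical axis), 761 pairs; red points were at least 2-fold from mock on the brightest probe set, and the dashed line marks equal values. Most red points lie in the lower left and upper right, closer to 0 on the vertical than on the horizontal axis.

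The labelled cell type was checked against marker lists. Of 13 CD4 T helper cell markers on the arrays 10 were measured, 0 rose and 1 fell (Cd3d, from 1050.2 to 451), and the median log2 ratio was 0.00. Cd4 read 610.2 with mock and 879.6 with Combo, and Cd3e 704 and 949, while Cd5 and Cd6 lay below the floor. None of 15 B cell and antigen presentation markers and none of 12 erythroid and neutrophil markers was measured. The list for CD8 T and NK cells had 9 markers on the arrays, 4 of them measured, and the summed level of the 9 ran from 3673 with Combo to 7661 with mock over the 5 treatments. Cd8a, Cd8b1, Prf1, Ncr1 and Eomes, which define those cells, lay below the floor in both groups, at 4.7 and 2.6 for Cd8a. That for macrophages and dendritic cells had 22, of which Cd14, Flt3 and Ctss (3) were measured, with a summed level of 2862 with mock and 1409 with Combo. Of these 22, 12 exceeded the floor in at least 1 of the 5 treatments. Csf1r, Adgre1 and Lyz2 lay below the floor. C1qb (142.7 with mock and 75.8 with Combo) and C1qc (133 and 122.8) lay above it but were too dim to be measured. In pooled RNA, fewer cells of a type and less RNA per cell cannot be told apart.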

How the data were processed

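Arrays were grouped by their titles. No change was made to the deposited intensity values before the floor was set. They are on a linear scale, and their nearly equal trimmed means point to scaling to a common level before deposit, with software not given in the sources used here. Of 36701 probe sets, 29131 carry 1 gene symbol, 724 several and 6846 none, by the platform annotation given for the arrays; 29044 matched a current RefSeq gene table, which changed 0 symbols. Suffixed probe sets, with a letter before "at" that marks shared sequence or a broken design rule, numbered 8897. The probe set brightest on average across the 5 treatments stood for its symbol, giving 15964 genes, and a call needs a 2-fold ratio after values are raised to the floor. For the technical spread, log2 ratios of 1 gene on probe sets of separate chip types were subtracted, and the SD of these differences was divided by √2. Counts and medians were computed in Python 3.11.15 with numpy 2.4.6 and pandas 2.3.3, and figures used matplotlib 3.10.9. Planted fold changes and array factors were used to test the log2 ratios of genes and the array scaling. The counts and medians themselves were not tested in this way. No p-value was computed, because each treatment has 1 array per chip type.

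Named genes are the 15 highest and 15 lowest whose further bright probe sets have the same sign, the 8 furthest above and below all other arms, the 3 highest and lowest measured members of each of 49 lists, and all measured members of the Egr, Nr4a, NFAT, MAP kinase phosphatase, cytokine, chemokine and TNF ligand lists; other names are marked in the text as chosen after their values were seen, and dim members of lists are named only as examples. The members and lists were chosen with earlier results of these data known.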

Additional observations from a re-analysis of the deposited data

Results flagged for a closer look

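Probe sets without a gene symbol were outside the gene comparisons, and the 3 of them with the highest ratio of Combo to mock are given here. Of 1133 measured probe sets without a symbol 71 (6.27%) rose and 83 (7.33%) fell. Of 236 with several symbols 18 (7.63%) rose and 21 (8.90%) fell. Over all measured probe sets, these groups included, the shares were 9.14% and 6.3%, so rises were less frequent and falls more frequent in both groups. The probe set 97519_at on chip type A read 122.5 with mock, 3175 with anti-TCR alone, 2859 with CSA, 92.4 with PKCi and 2409 with Combo, a 19.7-fold rise with Combo. On chip type C, 133341_at went from 48.2 to 610 (at least 11.1-fold higher) and 168975_i_at, which is suffixed, from 44.6 to 521 (at least 9.47-fold higher). Their genes are not named here.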

How the results depend on the processing

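No paired analysis was possible because every treatment has a lone array on a given chip type, and chip types read different probe sets. The counts under the alternatives are as follows, with the reported value in brackets. With 8 times the floor as minimum, 281 genes rose (483) and 213 fell (346), 407 probe sets rose (799) and 299 fell (551), and 4 genes were dimmest with Combo (11). With no minimum, 560 genes fell, 1346 probe sets rose and 1014 fell, 21 genes were brightest with Combo (10) and 22 dimmest, and 4 gene lists had a median log2 ratio of at least 1 (8). Requiring 2 or more agreeing probe sets left 727 genes, with 80 risen and 42 fallen; at the 4-fold level 23 rose (114) and 2 fell (37), with 0 brightest and 1 dimmest with Combo and 4 such lists. Median scaling gave 19 genes brightest with Combo, a median log2 ratio over all genes of 0.04 and 66.4% of called genes higher (58.3%); 2 times the floor gave 7 dimmest; and without chip type A, an alternative chosen after seeing the data, 282 genes rose. Leaving out suffixed probe sets reversed Brap, to a log2 ratio of 0.96 (-2.29). Quantile normalization, trimmed mean scaling and the mean of bright probe sets kept every count above within 1.5 times. Agreement between chip types stayed between 75.2% and 80.0% (76.2%). Summed over the alternatives, 448 comparisons of a list median with its reported value differed by less than the technical spread and 14 by more. Of these 14, 8 came from the alternative with no minimum. For values of named genes such comparisons numbered 2299 and 58.

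With 1 array per group, no value has an error over cultures, and a 2-fold change is not far outside the technical spread of 1.61-fold. A floor hides changes among dim genes, such as cytokines that did not reach the minimum. All arms share the mock arrays, so an array error in mock would enter each of them. Pools of 3 times hide the course of a response.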
